A study of Mus musculus with 90 samples.

Results

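The mouse liver genes described here are 9 members of the major urinary protein family, Mup2, Mup3, Mup9, Mup11, Mup15, Mup16, Mup19, Mup20 and Mup21. They were chosen by gene symbol out of the 21 genes named Mup with a number among the 24475 genes of each of 2 count tables. All 9 passed the filter on low counts in both tables. Major urinary proteins are small lipocalins that hepatocytes secrete and the kidney passes into urine, where they carry volatile pheromones and act as scent signals themselves. Their genes lie in a tandem cluster of near-identical central copies with more divergent peripheral copies beside them. In mouse liver the family is known for higher levels in males, for its need of pulsed growth hormone acting through STAT5b, and for its response to androgen, thyroid hormone and glucocorticoid.

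Liver messenger RNA was sequenced after knockdown of genes downstream of the glucagon receptor, which raises cAMP in hepatocytes and so activates protein kinase A (PKA), and after activation of PKA with or without block of the receptor. In experiment 1, with 50 libraries, the groups were Gcgr KD (the glucagon receptor itself), Gnas KD (the stimulatory G protein subunit), PKA KD (in which both Prkaca and Prkacb, the catalytic subunits, were low), Epac2 KD (the other cAMP sensor, encoded by Rapgef4) and Control. In experiment 2, with 40 libraries, they were Prkar1a KD with Gcgr mAb, Prkar1a KD with Control mAb, Control AAV with Gcgr mAb and Control AAV with Control mAb. Prkar1a is a regulatory subunit that holds PKA inactive, and Gcgr mAb is an antibody to the glucagon receptor. Each of the 9 groups had 10 libraries. The series names AAV8, a vector that transduces hepatocytes, carrying shRNA for the knockdowns, and the Control AAV groups of experiment 2 also received a vector. What the experiment 1 Control vector carried, the promoter, doses, times, strain, sex and age are not in the labels. The labels do not say that libraries of a group came from separate mice, and the p-values then measure only library-to-library spread.

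Each targeted gene fell in its own group on the log2 scale, in edgeR's quasi-likelihood test with Benjamini-Hochberg adjustment over all genes: Gcgr by 1.91 ± 0.10 (SE), Gnas by 2.80 ± 0.11, Prkaca by 3.06 ± 0.13, Prkacb by 2.06 ± 0.086 and Rapgef4 by 3.27 ± 0.18 (n = 10 each). Prkar1a fell by 1.94 ± 0.058 with Control mAb and by 1.74 ± 0.058 with Gcgr mAb. Depth was 20.8 to 33.7 M counts per library in experiment 1 and 8.87 to 19.5 M in experiment 2. Xist was at most 0.889 CPM (counts per M, scaled by library size with TMM factors) and the Y-linked Ddx3y at least 24.5 CPM in every library. Of all libraries, Control AAV with Gcgr mAb replicate 2 stood farthest from its group, with a median correlation of 0.937 to its group mates, followed by PKA KD replicate 5 at 0.957 and PKA KD replicate 3 at 0.959.

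The 9 genes span one region of chromosome 4 in the GRCm38 annotation. In order they are Mup2 at chr4:60135913-60139977, Mup9 at chr4:60418046-60422085, Mup11 at chr4:60658466-60662432, Mup15 at chr4:61435787-61439833, Mup16 at chr4:61515592-61519627 and Mup19 at chr4:61778324-61782355, and then Mup20 at chr4:62011337-62054143, Mup3 at chr4:62083476-62087317 and Mup21 at chr4:62147832-62150841. The transcripts of Mup2, Mup9, Mup11, Mup15, Mup16 and Mup19 were 94.3 to 99.6% identical over their 15 pairs, and these 6 are called the near-identical members. Mup20, which encodes the male pheromone darcin, was 86.7 to 90.7% identical to them, Mup3 78.4 to 82.5% and Mup21 78.7 to 86.7%. A stretch of 50 bases found in no annotated transcript of another numbered Mup gene or Mup pseudogene made up 0% of the windows of Mup2, Mup15 and Mup19, and 7.44 to 11% of those of Mup9, Mup11 and Mup16. Transcripts of other genes were not searched. It made up 49.9% of the windows of Mup20, 84.4% of Mup3 and 80.7% of Mup21. How the authors counted reads shared between copies is not given in the sources used here. Values of the 6 near-identical members are therefore uncertain one by one and are given mainly as their sum, while those of Mup20, Mup3 and Mup21 rest on more sequence of their own.

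The same division showed in the sequence just before the start site. RefSeq promoters on GRCm38.p6, from 250 bases before to 50 after each annotated start, were found for 7 of the 9 members. They are shown because the near-identical members among these 7 carry a long run of A and C that Mup3 and Mup21 lack. Each stretch is 130 bases on the minus strand, 5′ to 3′, and ends with the TATATAAGG box or at the annotated start where that comes first. Capitals mark its longest uninterrupted run of A and C, or the first such run where lengths tie. Mup2 is chr4:60139875-60140004, Mup19 is chr4:61782247-61782376, Mup3 is chr4:62087320-62087449 and Mup21 is chr4:62150842-62150971.
Mup2: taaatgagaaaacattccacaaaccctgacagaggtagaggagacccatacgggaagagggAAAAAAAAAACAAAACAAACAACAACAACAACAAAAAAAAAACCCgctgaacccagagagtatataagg
Mup19: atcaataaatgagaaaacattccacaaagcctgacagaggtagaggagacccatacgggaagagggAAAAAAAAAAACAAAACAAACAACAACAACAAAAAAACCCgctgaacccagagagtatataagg
Mup3: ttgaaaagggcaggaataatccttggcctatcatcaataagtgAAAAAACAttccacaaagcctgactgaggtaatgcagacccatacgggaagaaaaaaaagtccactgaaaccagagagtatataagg
Mup21: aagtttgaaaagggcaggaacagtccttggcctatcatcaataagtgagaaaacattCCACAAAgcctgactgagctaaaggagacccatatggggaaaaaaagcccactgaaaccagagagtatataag
The Mup15 stretch differed from that of Mup19 at 0 of 130 bases. The run was 45 bases in Mup2, 44 in Mup9, 42 in Mup11 and 40 in Mup15 and Mup19, against 8 bases in Mup3 and 7 in Mup21. Mup3 and Mup21 each hold another run of the same length, all of A and not in capitals, nearer the box. In the 5 genes with a long run it ended 15 bases before the TATATAAGG box. A run of at least 40 bases was present in 38 of 32544 distinct RefSeq promoters of the same full length (0.117%), where the median longest run was 8. TATATAAGG on the gene's own strand was present in 0.246% of promoters. Neither TTCNNNGAA, the letters that STAT5 binds, nor TGACG, part of the cAMP response element, searched on both strands, was in the full promoters of the 7 members. Of all promoters 8.33% held TTCNNNGAA and 20.9% held TGACG. These are matches of letters only, and a missing match says nothing of the factor. Mup16 and Mup20 were the members without a match.

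Sums of the 9 genes, called family sums here, were highest with Gcgr mAb in Control AAV livers. The 9 genes together took a mean of 1.73% of all counts in Gcgr KD, 1.53% in Gnas KD, 1.54% in PKA KD, 1.46% in Epac2 KD and 0.986% in Control livers. In experiment 2 it took 1.76% with Prkar1a KD and Gcgr mAb, 1.65% with Prkar1a KD and Control mAb, 2.95% with Control AAV and Gcgr mAb and 1.29% with Control AAV and Control mAb. Over all 21 numbered Mup genes the order in experiment 1 differed. Their mean share was 2.23% in Gcgr KD, 2.45% in Gnas KD, 2.0% in PKA KD, 2.52% in Epac2 KD and 1.35% in Control livers. The SD between libraries was 1.54 in Gcgr KD and 2.22 in Epac2 KD. In these bulk samples, fewer cells of a type and less RNA per cell cannot be told apart.

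Mup20 and Mup3 supplied most of the sum. On CPM per kb of transcript, the scale on which genes can be compared, Mup20 averaged 6287 ± 1076 and Mup3 6244 ± 1724 with Control AAV and Control mAb (SD, n = 10), which did not differ beyond their spread. Mup2 followed at 830 ± 660 and Mup21 at 272 ± 95.1. Mup20 made up a mean of 70.1% of the sum with Prkar1a KD and Gcgr mAb, 72.5% with Prkar1a KD and Control mAb, 53.1% with Control AAV and Gcgr mAb and 44.4% with Control AAV and Control mAb. The near-identical members made up 1.09%, 0.76%, 17.7% and 8.77% of it in the same 4 groups. In experiment 1 the Mup20 share was 64.8% in Gcgr KD, 49.5% in Gnas KD, 56.0% in PKA KD, 25.2% in Epac2 KD and 47.5% in Control livers.

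**Figure D1:**
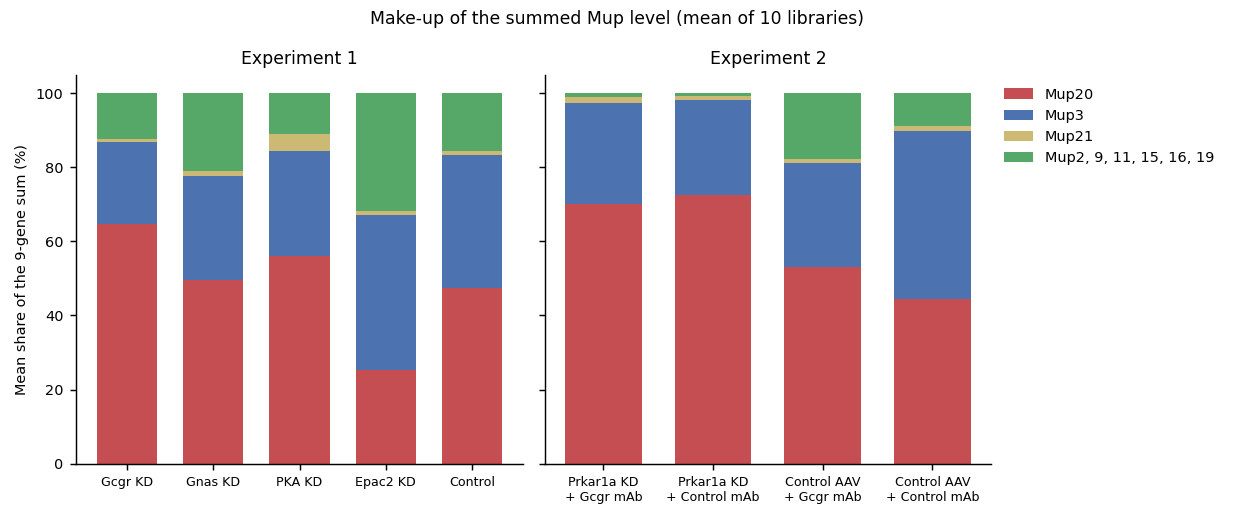
Mean share of the summed CPM of the 9 genes (percent, bars stacked to 100) taken by Mup20, Mup3, Mup21 and the 6 near-identical members in each of the 9 groups, 10 libraries each. The near-identical members hold 1.09% and 0.76% in the Prkar1a KD groups, against 17.7% and 8.77% in the Control AAV groups, and Mup20 holds 25.2% in Epac2 KD livers.

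Block of the glucagon receptor went with a higher family sum in livers without Prkar1a knockdown. With Control AAV, the sum was 13057, 30540 and 52855 CPM (lowest, median and highest of 10 libraries, as in all such sets of 3 values) with Gcgr mAb, against 9442, 11611 and 20539 CPM with Control mAb. All Gcgr mAb libraries but the lowest, replicate 2, lay above every Control mAb library. The log2 difference was 1.12 ± 0.22 (SE), against a pooled SD between libraries of 0.49. Without replicate 2 or any other single library the difference lay between 1.02 and 1.25.

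In this comparison 5 of the 9 genes rose and 0 fell, where 2.92% of the 12847 genes tested rose and 5.27% fell. Their median log2 difference was 1.69, against 0.01 over all genes tested. Mup20 had 8875, 14213 and 25814 CPM with Gcgr mAb, against 4457, 5958 and 7500 CPM with Control mAb. Every Gcgr mAb library was thus above every Control mAb library. Mup20 rose by 1.41 ± 0.17 on the log2 scale (edgeR adjusted p = 9.67e-08). The sum of the near-identical members was 110, 5351 and 12027 CPM with Gcgr mAb, against 324, 708 and 4282 CPM with Control mAb. The ranges overlapped. Mup16 had 4.15, 804 and 911 CPM with Gcgr mAb, against 4.93, 79.9 and 531 CPM with Control mAb, and Mup19 had 43.0, 1260 and 1690 CPM with Gcgr mAb, against 37.3, 94.6 and 557 CPM with Control mAb. In both, replicate 2 of the Gcgr mAb group lay near the bottom of the Control mAb range and the other 9 libraries of the Gcgr mAb group lay near or above its top. Of the near-identical members, Mup2 rose by 1.69 ± 0.47 (adjusted p = 0.019), Mup11 by 3.13 ± 0.95 (adjusted p = 0.0339), Mup16 by 2.12 ± 0.62 (adjusted p = 0.0255) and Mup19 by 2.45 ± 0.72 (adjusted p = 0.0282). Some of these calls turned on the method: Mup19 did not pass in DESeq2 (adjusted p = 0.172), nor Mup2 in limma-voom (adjusted p = 0.0734), and neither Mup2 (adjusted p = 0.0799) nor Mup16 (adjusted p = 0.0848) passed with only these groups in the edgeR fit.

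The other 4 genes had values of 2.65 for Mup15 (adjusted p = 0.0796), 1.05 for Mup21 (adjusted p = 0.0551, and 0.0222 in DESeq2), 0.68 for Mup9 (adjusted p = 0.403) and 0.49 for Mup3 (adjusted p = 0.224). Without replicate 2 of Control AAV with Gcgr mAb, 7 of the 9 passed, with Mup15 at 2.80 (adjusted p = 0.0425) and Mup21 at 1.19 (adjusted p = 0.0151) added. That library had the highest summed stellate cell markers, at 803 CPM over 6 genes against a next highest of 637 CPM in any library. Replicate 3 of the same group held the highest Mup sum and summed pancreatic acinar markers of 583 CPM, against a next highest of 49.1 CPM. Without it Mup11 was at 2.74 (adjusted p = 0.056). The calls of the near-identical members also turned on Control mAb libraries: 2 genes, Mup2 and Mup20, passed without replicate 2 of that group, 3 without replicate 5, 7 or 8, and 7 without replicate 6. Mup20 passed without any single library. The part of other cell types in these values was not tested.

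**Figure D2:**
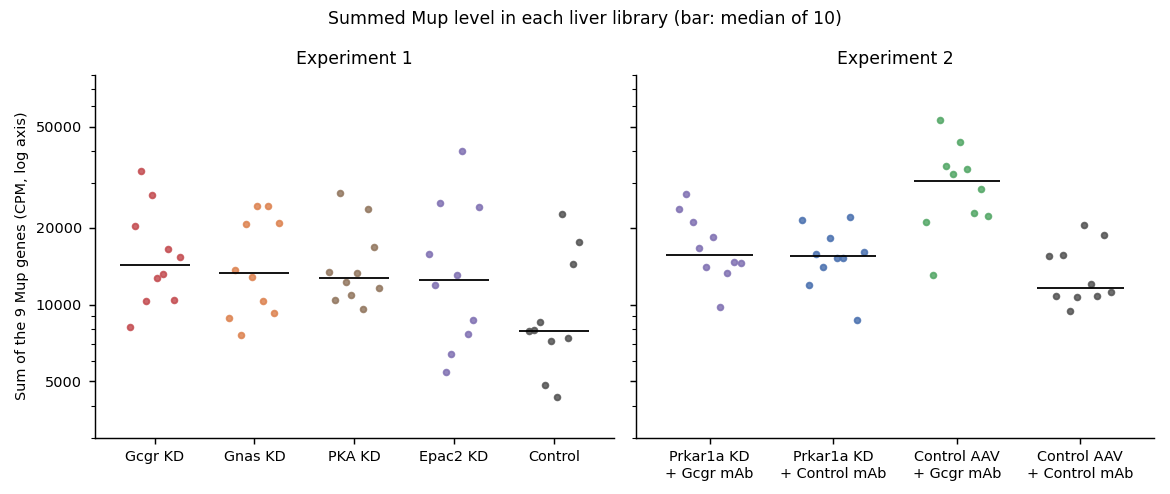
Summed CPM of the 9 genes in each library on a log axis, with experiment 1 in the left panel, experiment 2 in the right panel, a point per library and a bar at the group median. The 10 Control AAV with Gcgr mAb libraries have a median of 30540 CPM, above the medians of the other 8 groups, which lie between 7887 and 15706 CPM.

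Knockdown of Prkar1a divided the family. The comparison shares its Control AAV libraries with the one on the antibody. With Control mAb, the family sum was 8694, 15516 and 22134 CPM in Prkar1a KD livers, against 9442, 11611 and 20539 CPM in Control AAV livers, a log2 difference of 0.23 ± 0.17 (SE) against an SD of 0.39. This sum of 9 genes leaves out the other 12 numbered Mup genes, all 12 of which fell in the same comparison. It does not stand for the whole family. Within that sum Mup20 rose while the near-identical members fell. Their sum was 77.7, 95.6 and 222 CPM in Prkar1a KD livers, against 324, 708 and 4282 CPM in Control AAV livers, with no overlap and a log2 difference of -3.11 ± 0.45.

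Of the 9 genes, 1 rose and 7 fell, where 29.3% of all genes tested rose and 26.9% fell, and the median log2 difference was -3.05, against 0.02 over all genes. Mup20 had 6767, 11250 and 16520 CPM in Prkar1a KD livers, against 4457, 5958 and 7500 CPM in Control AAV livers. The ranges overlapped only between 6767 and 7500 CPM. Mup20 rose by 0.98 ± 0.16 on the log2 scale (edgeR adjusted p = 3.32e-06).

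Mup19 had 0, 0 and 2.99 CPM in Prkar1a KD livers, with 6 of 10 libraries at 0, against 37.3, 94.6 and 557 CPM in Control AAV livers. The lowest Control AAV library was above the highest Prkar1a KD library. A count of 0 allows up to 0.154 to 0.338 CPM at these depths (3 counts, counting error only). The mean was 0.73 ± 1.11 CPM in Prkar1a KD and 210 ± 202 CPM in Control AAV livers (SD, n = 10 each), and the fitted log2 difference was -8.17 ± 1.0 (adjusted p = 1.52e-08), an estimate that rests on few counts.

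Mup16 had 0.758, 2.03 and 4.38 CPM in Prkar1a KD livers, against 4.93, 79.9 and 531 CPM in Control AAV livers. Mup2, the most abundant of the 6, had 70.5, 88.4 and 181 CPM in Prkar1a KD livers, against 256, 476 and 2125 CPM in Control AAV livers. For both genes, and for Mup9, the groups did not overlap. Mup16 fell by 6.22 ± 0.78 on the log2 scale (adjusted p = 1.78e-08), Mup2 by 2.90 ± 0.49 (adjusted p = 5.06e-06) and Mup9 by 3.05 ± 0.55 (adjusted p = 1.31e-05). Mup11 fell by 4.09 ± 1.0 (adjusted p = 0.000898) and Mup15, at -6.33 ± 1.2, fell too (adjusted p = 3.67e-05), with all 10 Prkar1a KD libraries below the Control AAV median but ranges that overlapped. Mup9 had 1.25, 3.09 and 7.0 CPM in Prkar1a KD livers, against 8.82, 17.6 and 91.2 CPM in Control AAV livers. Mup11 had 0.188, 3.08 and 26.0 CPM in Prkar1a KD livers, against 9.71, 35 and 403 CPM in Control AAV livers. Mup15 had 0, 0.784 and 4.84 CPM in Prkar1a KD livers, against 1.83, 7.83 and 575 CPM in Control AAV livers. With limma-voom Mup15 was at -4.92 (adjusted p = 0.196).

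Mup3 had 1734, 4028 and 5825 CPM in Prkar1a KD livers, against 4149, 5626 and 8852 CPM in Control AAV livers, with much overlap. It fell by 0.58 ± 0.25 (adjusted p = 0.042), a call near the threshold that was lost in 10 of the fits with 1 library left out (adjusted p = 0.051 to 0.0826), with no filter on low counts (-0.57, adjusted p = 0.0672) and with a replicate block (-0.57, adjusted p = 0.0555). Mup21 had 53.8, 186 and 339 CPM in Prkar1a KD livers, against 106, 156 and 314 CPM in Control AAV livers, and a log2 difference of -0.02 ± 0.35 (adjusted p = 0.971). The genes with the long run of A and C before their start site were among those that fell, Mup3 fell less and Mup21 was not called. This describes 7 genes that share sequence. Mup16, which fell, and Mup20, which rose, had no promoter to compare. All 12 numbered Mup genes outside the 9 fell too, and whether they carry the run is not given here.

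**Figure D3:**
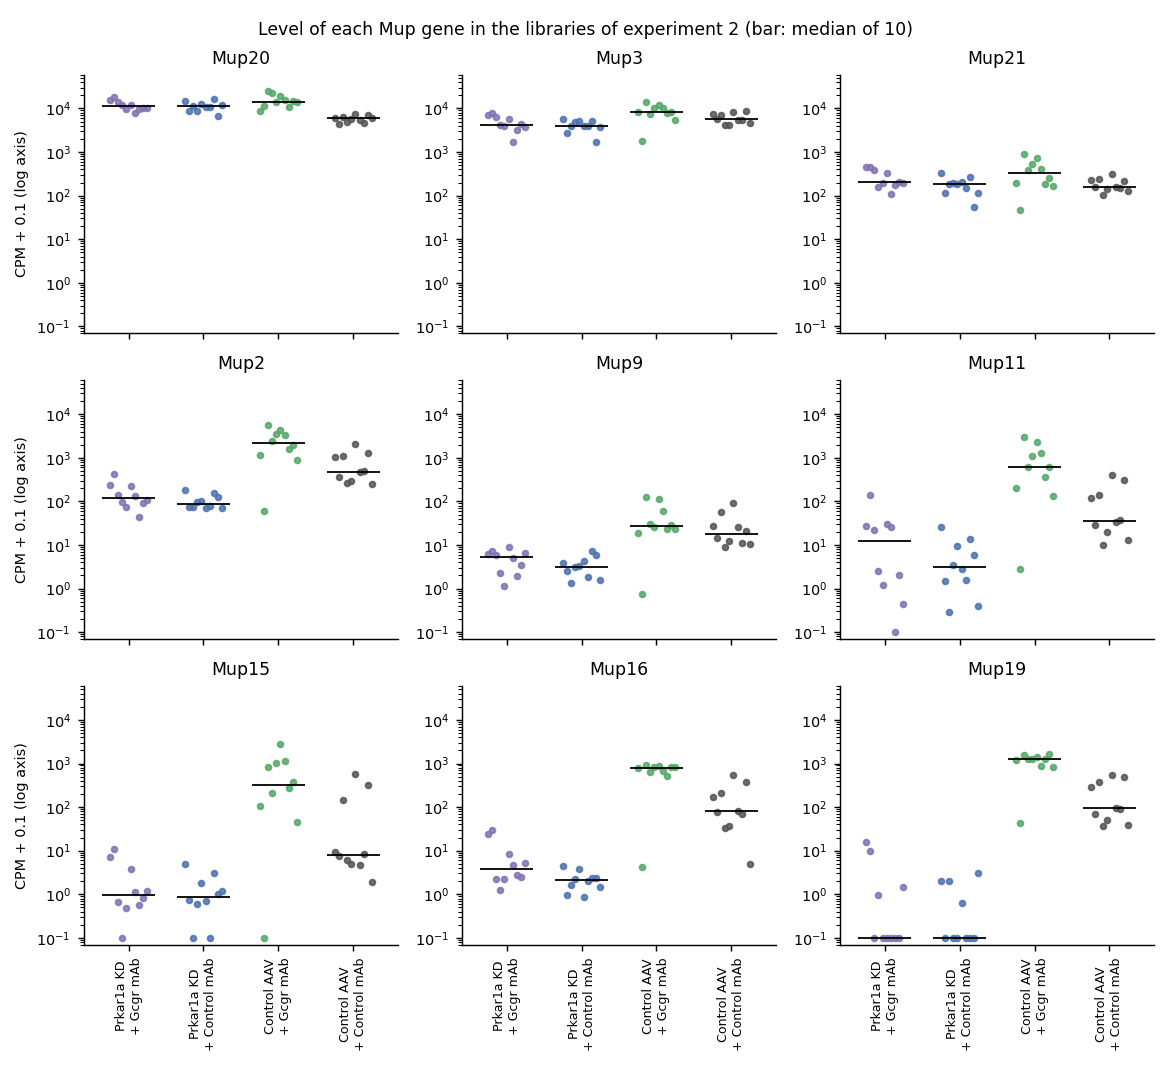
CPM + 0.1 (log axis) of each of the 9 genes in the 4 groups of experiment 2, a point per library and a bar at the median. Mup19 lies at or near 0 in both Prkar1a KD groups, against medians of 1260 and 94.6 CPM in the Control AAV groups, while Mup20 has medians of 11130 and 11250 CPM in Prkar1a KD livers, against 14213 and 5958 CPM in Control AAV livers.

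With Gcgr mAb present, the same knockdown gave a lower family sum, at 9738, 15706 and 27148 CPM in Prkar1a KD livers, against 13057, 30540 and 52855 CPM in Control AAV livers. The log2 difference was -0.78 ± 0.23, against an SD of 0.52. Here 0 of the 9 genes rose and 7 fell, where 26.5% of all genes tested rose and 26.6% fell, and 7 or 8 were called with any single library left out. The near-identical members summed to 48.7, 147 and 636 CPM in Prkar1a KD livers, against 110, 5351 and 12027 CPM in Control AAV livers. They overlapped only through replicate 2 of the Control AAV group. All 6 fell, with log2 differences from -3.25 ± 0.54 (Mup9) to -8.83 ± 1.0 (Mup19), with adjusted p of 7.6e-05 or less. Without replicate 2 of the Control AAV group they lay between -3.42 (Mup9) and -8.99 (Mup19), with adjusted p of 2.33e-05 or less, and the family sum was at -0.90. Mup3, at 1683, 4250 and 7929 CPM in Prkar1a KD livers, against 1794, 8403 and 14111 CPM in Control AAV livers, fell by 0.82 ± 0.25 (adjusted p = 0.00521).

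Mup20 had 7771, 11130 and 18128 CPM in Prkar1a KD livers with Gcgr mAb, against 8875, 14213 and 25814 CPM in Control AAV livers with Gcgr mAb. The groups overlapped widely. Its log2 difference was -0.37 ± 0.16 (adjusted p = 0.0521) with all libraries and -0.43 (adjusted p = 0.0277) without replicate 2 of the Control AAV group, and it passed with all libraries in DESeq2 (-0.39, adjusted p = 0.0358) and with RLE scaling (-0.39, adjusted p = 0.0453). Mup21 was at -0.51 ± 0.35 (adjusted p = 0.219).

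In Prkar1a KD livers the antibody gave no call among the 9 genes. The sum was 9738, 15706 and 27148 CPM with Gcgr mAb, against 8694, 15516 and 22134 CPM with Control mAb, a log2 difference of 0.11 ± 0.19 (SE) and a pooled SD of 0.42. By edgeR 0 of 9 passed, where 0% of all genes tested rose and 0% fell, and DESeq2 and limma-voom also called 0 of 9. At an unadjusted p under 0.05 there was 1, Mup16, at 1.89 ± 0.73.

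The test of the difference itself, the interaction of Prkar1a KD and Gcgr mAb, passed for Mup20. Its log2 interaction was -1.35 ± 0.23 (adjusted p = 0.00028), and -1.39 (adjusted p = 0.000153) without replicate 2 of Control AAV with Gcgr mAb. The antibody thus went with a 1.41 higher log2 level in Control AAV livers, and the interaction gives the amount by which that difference was smaller in Prkar1a KD livers. Of the 9 genes 1 was called lower and 0 higher, where 1.34% and 2.74% of all genes were. The other 8 had interactions between -0.20 and -1.85 that did not pass. The family sum had an interaction of -1.01 ± 0.29, and the near-identical members one of -1.56 ± 0.84.

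Prkar1a KD with Gcgr mAb was also set against Control AAV with Control mAb, which shares samples with the comparisons above. Of the 9 genes 1 rose and 5 fell, where 26% of all genes rose and 24.2% fell. Mup20 rose by 1.04 ± 0.16 (adjusted p = 1.43e-06), with all libraries at 7771 CPM or more in Prkar1a KD livers with Gcgr mAb and at 7500 CPM or less in Control AAV livers with Control mAb. Mup2 was at -2.27, Mup9 at -2.57, Mup15 at -5.53, Mup16 at -4.32 and Mup19 at -6.38 on the log2 scale, all of which fell, and Mup11 was at -2.16 (adjusted p = 0.0525). Mup15 did not pass in limma-voom (-4.39, adjusted p = 0.192), while Mup11 passed in DESeq2 (-2.13, adjusted p = 0.0281) and limma-voom (-3.91, adjusted p = 0.00697). Set against Control AAV with Gcgr mAb, Prkar1a KD with Control mAb had 0 of 9 genes higher and 9 lower, where 28.4% of all genes rose and 27.9% fell, and again 9 lower without replicate 2 of Control AAV with Gcgr mAb. With any single library left out, 8 or 9 were called. Mup20 did not pass without replicate 3 (-0.33, adjusted p = 0.0743) or replicate 4 (-0.37, adjusted p = 0.0553) of Control AAV with Gcgr mAb.

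In experiment 1 the family sum was 8146, 14247 and 33458 CPM in Gcgr KD, 7587, 13292 and 24459 CPM in Gnas KD, 9613, 12751 and 27301 CPM in PKA KD, 5434, 12446 and 39933 CPM in Epac2 KD and 4334, 7887 and 22580 CPM in Control livers. All 4 knockdown groups overlapped widely with Control. The log2 differences from Control were 0.76 ± 0.32 for Gcgr KD, 0.64 ± 0.32 for Gnas KD, 0.65 ± 0.29 for PKA KD and 0.53 ± 0.38 for Epac2 KD. The pooled SD was 0.65 to 0.86, and these 4 differences share the same Control libraries.

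Mup20, for darcin, had 6088, 9592 and 17419 CPM in Gcgr KD, 4138, 6530 and 10210 CPM in Gnas KD, 5665, 6902 and 16221 CPM in PKA KD, 1310, 2852 and 8812 CPM in Epac2 KD and 2276, 4115 and 8100 CPM in Control livers. All Gcgr KD, Gnas KD and PKA KD libraries lay above the Control median, yet each range overlapped that of Control, and the Epac2 KD median lay below the Control median. Mup20 rose by 1.17 ± 0.28 on the log2 scale in Gcgr KD (edgeR adjusted p = 0.0043) and by 0.87 ± 0.27 in PKA KD (adjusted p = 0.011). It was at 0.60 ± 0.27 in Gnas KD (adjusted p = 0.137). Without PKA KD replicate 3 the PKA KD value was 0.71 (adjusted p = 0.038), and without replicate 5, whose cholangiocyte markers were the highest of all libraries at 43.0 CPM over 5 genes, it was 0.87 (adjusted p = 0.0141).

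Mup21 was called in PKA KD livers only among the 4 knockdowns set against Control. It had 185, 689 and 1288 CPM in PKA KD livers, against 29.9, 97.9 and 284 CPM in Control livers. PKA KD replicate 5, at 185 CPM, lay within the Control range, and the other 9 PKA KD libraries, at 340 CPM or more, lay above all of it. Mup21 rose by 2.53 ± 0.42 (adjusted p = 3.45e-06), and by 2.38 to 2.64 without PKA KD replicate 3 or 5. The difference was tested directly: in PKA KD it was 1.85 ± 0.41 higher than in Gcgr KD (adjusted p = 0.000349), 1.74 ± 0.40 higher than in Gnas KD (adjusted p = 0.000687) and 2.12 ± 0.41 higher than in Epac2 KD (adjusted p = 4.49e-05). Mup21 medians were 141 CPM in Gcgr KD, 216 CPM in Gnas KD and 150 CPM in Epac2 KD livers.

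By count, 1 of 9 rose and 0 fell in Gcgr KD, where 2.9% of the 13574 genes tested rose and 4.33% fell. In PKA KD 2 rose and 0 fell, where 17.7% rose and 14.8% fell, so that the members' share was near that of all genes. In Gnas KD 0 of 9 passed in edgeR, DESeq2 or limma-voom, with 1 (Mup20) at an unadjusted p under 0.05, where 6.83% of all genes rose and 8.32% fell.

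In Epac2 KD 0 of 9 passed in edgeR, where 1.82% of all genes rose and 2.74% fell, although the members' median log2 difference of 1.37 was the highest of the 4 knockdowns. At an unadjusted p under 0.05 there were 3, Mup9, Mup2 and Mup3. Mup9 had 4.96, 29.2 and 422 CPM in Epac2 KD livers, against 0.52, 4.25 and 93.6 CPM in Control livers. It was at 2.50 ± 0.77, on the threshold, with an adjusted p of 0.0501 in edgeR, 0.0112 in DESeq2 and 0.0311 in limma-voom. It passed without Control replicate 7 or 10, or without Epac2 KD replicate 1, 4, 5, 6, 8 or 9, and Mup3 passed without Control replicate 7 (0.77, adjusted p = 0.0492). Mup2 was at 1.52 ± 0.65 (adjusted p = 0.208) and Mup3 at 0.67 ± 0.23 (adjusted p = 0.0935).

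**Figure D4:**
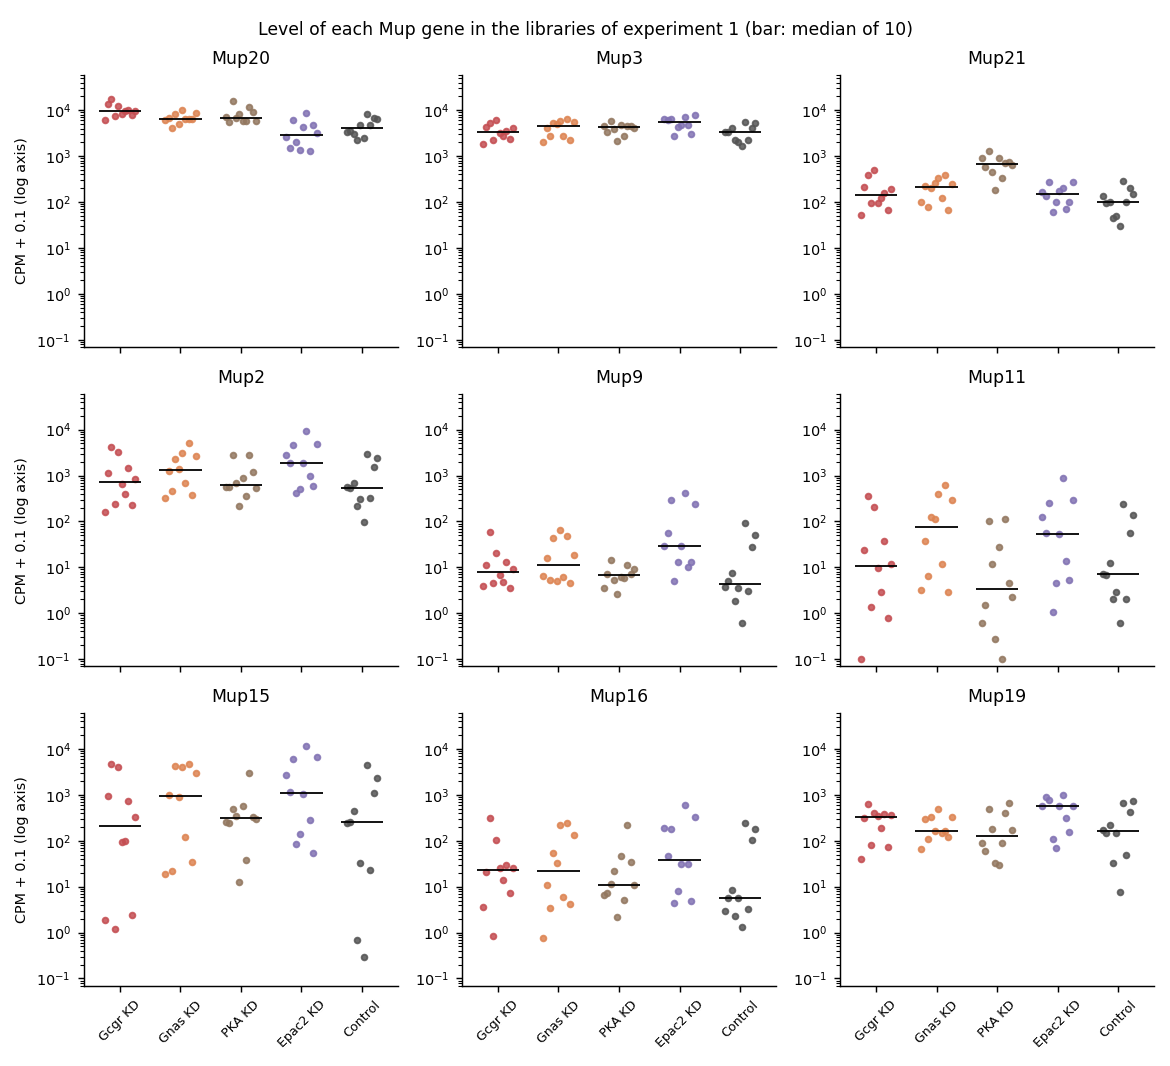
CPM + 0.1 (log axis) of each of the 9 genes in the 5 groups of experiment 1, a point per library and a bar at the median. Mup21 has a median of 689 CPM in PKA KD livers, against 97.9 CPM in Control livers, and Mup20 is highest in Gcgr KD livers, with a median of 9592 CPM.

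Set against each other, the knockdowns differed in Mup20, Mup9 and, as given above, Mup21. Epac2 KD against Gcgr KD had Mup9 higher by 3.06 ± 0.79 (adjusted p = 0.00411) and Mup20 at -1.50 ± 0.28 (adjusted p = 6.28e-05), 1 higher and 1 lower of 9, where 11.1% and 9.72% of all genes were. PKA KD against Epac2 KD had 2 higher and 1 lower, where 18.4% and 17.3% were: besides Mup21, Mup20 was 1.20 ± 0.28 higher (adjusted p = 0.000434) and Mup9 was at -3.96 ± 0.83 (adjusted p = 0.000156). Without PKA KD replicate 3, Mup2 passed too (-1.68, adjusted p = 0.0457), and without replicate 8 there were 7 calls in that pair. Gnas KD against Epac2 KD had 1 higher and 1 lower, where 12% and 12.8% were, with Mup20 at 0.93 ± 0.27 (adjusted p = 0.00938) and Mup9 at -2.35 ± 0.77 (adjusted p = 0.0205), of which Mup20 alone passed without Epac2 KD replicate 7.

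In PKA KD against Gcgr KD, Mup21 was the 1 of 9 that was higher and 0 were lower, where 17.3% and 14.4% of all genes were. The same gene was the 1 of 9 in PKA KD against Gnas KD, where 18.4% and 15.6% were. Gnas KD against Gcgr KD had 0 of 9 in edgeR, DESeq2 or limma-voom, with 1, Mup20 at -0.57 ± 0.27, at an unadjusted p under 0.05, where 2.37% of all genes were higher and 3.47% lower. Family sums differed by less than their SE in all 6 pairs of knockdowns, with log2 differences between -0.23 (Epac2 KD against Gcgr KD) and 0.12 (PKA KD against Epac2 KD).

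**Figure D5:**
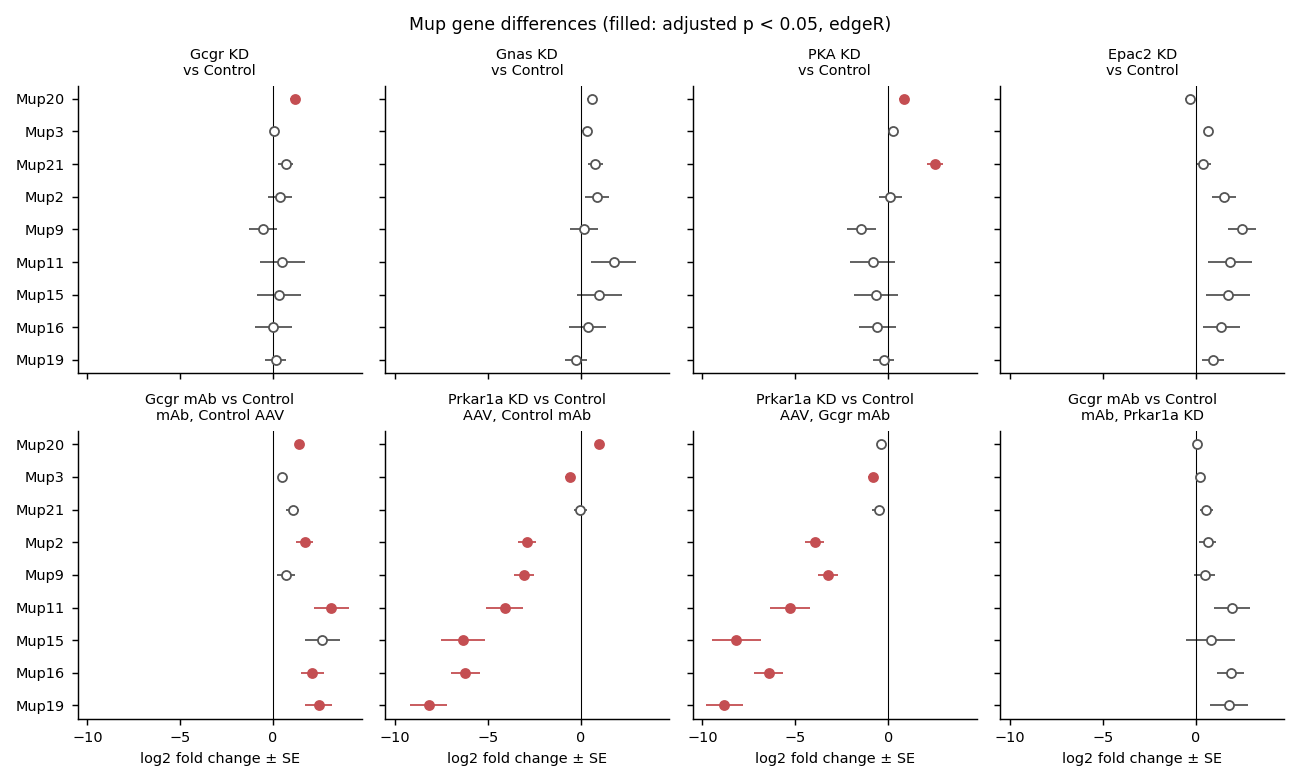
Log2 differences of the 9 genes with their SE in the main comparisons of both experiments, with filled points for an edgeR adjusted p under 0.05. Mup20 is at 1.41 with Gcgr mAb and at 0.98 with Prkar1a KD in Control mAb livers, where the near-identical members lie between -2.90 and -8.17.

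The spread between libraries of one group differed by gene and by group. Over the 9 groups the highest library was 1.68 to 6.73 times the lowest for Mup20, 2.13 to 7.87 times for Mup3 and 2.96 to 18.8 times for Mup21. Among the near-identical members the ratio was as low as 2.57, for Mup2 in Prkar1a KD with Control mAb, below the 3.36 of Mup3 and the 6.3 of Mup21 there. It was as high as 22610, for Mup15 in experiment 1 Control livers, with no ratio where the lowest library was at 0. The library in which most of the 6 near-identical members were at their highest held all 6 in 3 of the 9 groups, namely replicate 3 of Gcgr KD, replicate 7 of Epac2 KD and replicate 6 of Control AAV with Control mAb, and 4 or 5 of the 6 in the other groups. For their lowest values one library held all 6 in 2 groups, namely replicate 6 of experiment 1 Control and replicate 2 of Control AAV with Gcgr mAb, and 2 to 4 of the 6 elsewhere. Their transcripts share most of their sequence, and the part of shared reads in these values was not tested.

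The tables hold 12 numbered Mup genes outside the 9. In Prkar1a KD livers with Control mAb 12 of 12 fell, where 26.9% of all genes did. Mup6 was down by 2.19 ± 0.23 (adjusted p = 1.95e-10) and Mup5 by 2.52 ± 0.39 (adjusted p = 5.82e-07). In Prkar1a KD livers with Gcgr mAb 12 fell as well, where 26.6% of all genes did. In Control AAV livers with Gcgr mAb 1 of them, Mup4, rose by 1.18 ± 0.32 (adjusted p = 0.016), where 2.92% of all genes rose. In PKA KD livers 1 of 12, Mup18, fell, by 4.28 ± 1.5 (adjusted p = 0.022), where 14.8% of all genes fell.

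Of 15 genes of the growth hormone and STAT5 axis, 14 passed the filter in experiment 2. With Gcgr mAb in Control AAV livers 2 rose and 1 fell, where 2.92% of all genes rose and 5.27% fell. In Prkar1a KD livers 5 rose and 4 fell with Control mAb, where 29.3% and 26.9% of all genes did, and 2 rose and 5 fell with Gcgr mAb, where 26.5% and 26.6% did. Socs2, a feedback inhibitor that STAT5 induces, had 10.2, 14.7 and 88.2 CPM with Gcgr mAb, against 3.23, 8.73 and 22.2 CPM with Control mAb in Control AAV livers, and rose by 1.27 ± 0.34 on the log2 scale (adjusted p = 0.0128). In Prkar1a KD livers with Control mAb it had 2.51, 4.68 and 6.5 CPM, and it fell by 1.27 ± 0.36 against Control AAV (adjusted p = 0.00261). Ghr, the growth hormone receptor, fell by 0.53 ± 0.12 there (adjusted p = 0.00033), and Prlr, the prolactin receptor, rose by 0.73 ± 0.12 (adjusted p = 1.04e-06).

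In experiment 1 all 15 of these genes were tested, and 3 rose and 1 fell in PKA KD livers, where 17.7% of all genes rose and 14.8% fell, a share near that of all genes. In Epac2 KD 1 rose, where 1.82% of all genes did, and none was called in Gcgr KD or Gnas KD. Socs2 rose by 1.53 ± 0.45 in PKA KD (adjusted p = 0.00711), and Ghr fell by 0.70 ± 0.080 (adjusted p = 5.42e-10). Of the receptors and factors known to act on Mup genes, Zhx2, a repressor of fetal liver genes, was at -0.23 ± 0.049 in PKA KD livers (adjusted p = 0.000192), and 1 rose and 4 fell of 12 tested. In Prkar1a KD livers with Control mAb 1 rose and 2 fell of 11 tested, where 29.3% of all genes rose and 26.9% fell. Hnf4a, a master factor of hepatocytes, was up by 0.77 ± 0.066 there (adjusted p = 6.4e-13).

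Of 15 other genes tested with a known male bias in liver, 2 rose and 10 fell in Prkar1a KD livers with Control mAb, where 29.3% of all genes rose and 26.9% fell, with a median log2 difference of -0.99. Hsd3b5, a steroid dehydrogenase, fell by 4.54 ± 1.3 (adjusted p = 0.00276), Slco1a1, an organic anion transporter, was at -4.09 ± 0.95 (adjusted p = 0.000385), and Gstp1, a glutathione transferase, rose by 2.05 ± 0.17 (adjusted p = 2.67e-13). With Gcgr mAb in Control AAV livers 2 rose and 2 fell, against 2.92% and 5.27% of all genes, and in PKA KD livers 6 rose and 1 fell of 16, against 17.7% and 14.8%. Of 12 female-biased genes tested, 5 rose and 4 fell in Prkar1a KD livers with Control mAb. Cyp17a1 rose by 2.61 ± 0.27 (adjusted p = 1.95e-10) and Cyp2b10 fell by 5.18 ± 0.91 (adjusted p = 6.63e-06).

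Among other lipocalins made by liver, 0 rose and 8 fell of 10 tested in Prkar1a KD livers with Control mAb. Their median was -1.71, where 29.3% of all genes rose and 26.9% fell. Orm3, an acute phase glycoprotein gene with close copies in Orm1 and Orm2, fell by 8.43 ± 0.66 (adjusted p = 1.16e-13), a value uncertain for the same reason as for the near-identical Mup genes. It rose by 1.34 ± 0.30 with Gcgr mAb in Control AAV livers (adjusted p = 0.00302) and by 1.98 ± 0.28 in Gcgr KD (adjusted p = 1.49e-06). Apom, a lipocalin of high density lipoprotein, rose by 0.47 ± 0.11 with Gcgr mAb (adjusted p = 0.00269).

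Of 15 abundant secreted liver proteins, 2 rose and 11 fell in Prkar1a KD livers with Control mAb. Their median was -0.37, where 29.3% of all genes rose and 26.9% fell. Apoa1, the main protein of high density lipoprotein, fell by 1.87 ± 0.11 (adjusted p = 1.55e-17), Ttr, a carrier of thyroid hormone, by 1.76 ± 0.13 (adjusted p = 1.39e-14), and Hpx, which binds heme, rose by 0.91 ± 0.13 (adjusted p = 1.04e-07).

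Hepatocyte markers were present throughout but moved with Prkar1a KD. The 6 markers summed to 38327 ± 6787 CPM with Prkar1a KD and Gcgr mAb, 34454 ± 4175 CPM with Prkar1a KD and Control mAb, 62657 ± 8077 CPM with Control AAV and Gcgr mAb and 71698 ± 3315 CPM with Control AAV and Control mAb (SD, n = 10 each). Of the 6, Alb, Ttr and Apoa1 fell and Tat, Cps1 and Hnf4a rose in Prkar1a KD livers with Control mAb. Of 5 endothelial markers 2 fell, of 6 stellate cell markers 2 fell and of 5 Kupffer cell markers none was called there. Across all genes 26.9% fell in that comparison. In Prkar1a KD livers with Gcgr mAb 4 of the 5 endothelial, 4 of the 6 stellate cell and 4 of the 5 Kupffer cell markers fell, where 26.6% of all genes did. With Gcgr mAb in Control AAV livers, the Kupffer cell marker Adgre1 rose by 0.81 ± 0.26 (adjusted p = 0.0426) and the endothelial marker Stab2 by 0.62 ± 0.16 (adjusted p = 0.0106). The sum of 4 adipocyte markers was 2.35 ± 2.64 CPM with Prkar1a KD and Gcgr mAb and 1.36 ± 1.39 CPM with Prkar1a KD and Control mAb. It was 15.3 ± 11.8 CPM with Control AAV and Gcgr mAb and 41.5 ± 23.2 CPM with Control AAV and Control mAb (SD, n = 10 each). Of 5 salivary and lacrimal gland markers, tissues that also express Mup genes, Smr3a, Dcpp1 and Scgb2b20 were at 0 in every library. The list summed to 173 ± 22.8 CPM with Prkar1a KD and Gcgr mAb, 151 ± 18.3 CPM with Prkar1a KD and Control mAb, 249 ± 26.3 CPM with Control AAV and Gcgr mAb and 305 ± 23.7 CPM with Control AAV and Control mAb (SD, n = 10 each), and to 70.3 to 148 CPM in the libraries of experiment 1. The 1 gene of the list tested in experiment 2, Amy1, fell by 1.02 ± 0.075 in Prkar1a KD livers with Control mAb (adjusted p = 1.12e-14), and was lower at -0.53 ± 0.075 with Gcgr mAb (adjusted p = 1.57e-07). The share of these cell types in the Mup values was not tested.

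The gene most like the family sum over the 90 libraries was C6, a complement component made in liver, with r = 0.879 on log2 CPM centred on each experiment's mean. Within experiments it was 0.891 in experiment 1 and 0.858 in experiment 2. Hsd3b5 (r = 0.787), C8a (r = 0.78), Selenbp2 (r = 0.776) and Prpf6 (r = 0.772) followed among 10594 genes, and Acot2 (r = -0.792), Mgst3 (r = -0.757) and Grpel2 (r = -0.754) ran most against it. These correlations describe libraries that share groups and carry no p. C6 rose with Gcgr mAb in Control AAV livers by 0.92 ± 0.21 (adjusted p = 0.00347), and was at 0.09 ± 0.21 in Prkar1a KD livers with Control mAb (adjusted p = 0.749).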

How the data were processed

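Messenger RNA from liver was sequenced in 90 libraries, with strand-specific KAPA libraries amplified by PCR, per the labels' protocols. The deposited values are estimated counts per Entrez gene in 2 tables made by the authors, of which 8.56% and 8.43% were not whole numbers (tolerance 1e-09), and they were rounded before testing. The submitters' processing notes name bcl2fastq 2.17, FastQC and the builds GRCm38 and mm10. The aligner, the counter and the handling of reads shared between near-identical copies were not given in the sources used here. These could shift counts between Mup copies. Symbols were found for 24375 of 24475 Entrez IDs, and 0 columns were left unused.

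The 2 experiments were tested separately in edgeR 4.0.16 (R 4.3.3) with TMM scaling, its filter on low counts (13574 and 12847 genes kept), 1 quasi-likelihood fit over all groups of the experiment, and Benjamini-Hochberg adjustment over all genes. Calls were made under an adjusted p of 0.05. CPM are counts over TMM-scaled library totals, and log2 family sums were taken from these CPM with no prior count. A prior count of 2 entered only the log2 CPM of single genes used for correlations. The labels do not say whether replicate numbers pair libraries, and no block was used in the main fit. Correlations of same-numbered deviations had a median of 0.0448 in experiment 1 (from -0.389 to 0.568) and -0.00487 in experiment 2 (from -0.315 to 0.4). Such medians cannot show that libraries were unpaired. Fits with DESeq2 1.42.0, limma 3.58.1 (voom), RLE scaling, no filter, totals without Mup genes, the groups of the contrast alone and a replicate block were alternatives. Leaving out each library was added after seeing the data. On simulated counts for PKA KD against Control over 13508 genes, 92.5% of genes changed by 1 on the log2 scale were recovered, with 3.41% false calls. The changed genes were drawn at random from all genes. Mup11 and Mup15 had an SE of 1.2 in that comparison, so this recovery does not hold for genes with such spread.

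The 9 members, the gene lists and the grouping of 6 near-identical members were chosen with earlier results of these data known, so list counts are descriptions and the sum carries no p. Named genes are all numbered Mup genes, the targeted genes, chosen growth hormone genes, the called list genes with the largest changes and those most like the sum. Transcripts are from the GENCODE vM21 annotation, promoters from RefSeq, and sequence work used Biopython 1.88.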

Additional observations from a re-analysis of the deposited data

Results flagged for a closer look

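Among 90 checks of single genes and of the family sum over the 10 libraries of a group, 13 found a library farther from the rest than usual for a group of that size. Chance flags about 1 group in 20 where values are spread normally and checks are independent. The checks used CPM, which were skewed for these genes, and near-identical members often peaked in the same library. The 13 therefore cannot be set against that rate. In Epac2 KD replicate 7, Mup2 was at 9134 CPM, against a next highest of 4743 CPM, and Mup11 at 877 CPM, against 300 CPM. In Gcgr KD replicate 3, Mup9 was at 57.9 CPM, against 20.2 CPM, and Mup16 at 321 CPM, against 106 CPM. In PKA KD replicate 8, Mup15 was at 3067 CPM, against 560 CPM, and Mup16 at 220 CPM, against 46.8 CPM. Mup15 was at 4522 CPM in experiment 1 Control replicate 7, against 2324 CPM.

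In Prkar1a KD with Gcgr mAb replicate 2, Mup2 was at 435 CPM, against 243 CPM, and Mup11 at 143 CPM, against 30.9 CPM. Mup11 was at 26.0 CPM in Prkar1a KD with Control mAb replicate 1, against 13.8 CPM. Mup15 was at 2775 CPM in Control AAV with Gcgr mAb replicate 6, against 1124 CPM. Replicate 2 of that group was low, with Mup16 at 4.15 CPM, against a next lowest of 524 CPM, and Mup19 at 43.0 CPM, against 844 CPM. All 13 concerned near-identical members.

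The response of Mup20 to Gcgr mAb differed between Prkar1a KD and Control AAV livers in a direct test, with a log2 interaction of -1.35 (edgeR adjusted p = 0.00028).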

How the results depend on the processing

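No result changed sign in a call under the alternatives run. Of the counts of members called, those of Epac2 KD against Control, PKA KD against Gnas KD, Gnas KD against Epac2 KD and Gcgr mAb in Control AAV moved by over 1.5 times. Epac2 KD against Control had 1 call, Mup9, with DESeq2, RLE scaling or limma-voom, against 0. PKA KD against Gnas KD had 2 with only the groups of the contrast fitted, against 1. Gnas KD against Epac2 KD had 1 with limma-voom, with only its own groups or with a replicate block, against 2. Gcgr mAb in Control AAV had 3 with only its own groups, against 5. The replicate block also added Mup15 there (3.73, adjusted p = 0.0254) and dropped Mup3 in Prkar1a KD with Control mAb (-0.57, adjusted p = 0.0555). The labels do not say that replicate numbers pair libraries. With each library left out, an alternative added after seeing the data, the calls ran from 0 to 2 in Epac2 KD against Control, 3 to 7 in PKA KD against Epac2 KD, 1 to 2 in Gnas KD against Epac2 KD and 2 to 7 for Gcgr mAb in Control AAV. The causes were not tested. Of 90 results for single members, 85 kept direction and side of the threshold with DESeq2, 88 with RLE scaling and 90 with totals without Mup genes. At the lower depth of experiment 2, levels under 0.154 to 0.338 CPM cannot be told from 0, which touches Mup11, Mup15 and Mup19 in Prkar1a KD livers. That limit covers counting error only.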
